A study of Mus musculus with 16 samples.

Results

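Thymic lymphomas of Lck-Dlx5 mice were compared with thymic T cells of wild-type (WT) littermates across all genes of a whole-transcript mouse array. Of the 16 arrays in the series, 6 belong to this comparison, chosen by the genotype given for each sample: 3 arrays of Lck-Dlx5 lymphomas and 3 of WT thymic T cells. The Lck-Dlx5 transgene was the only one carried by the lymphoma mice, and each lymphoma came from a different founder line (63, 47 and 86), so founder line and mouse cannot be told apart. The WT samples came from littermates that carried no transgene. All 6 mice were 9 months old, and total RNA of each was hybridized to 1 array, so the p-values measure the spread between single mice. The other tumor groups, which share the estimate of the spread, were 4 tumors of Lck-Dlx5;Lck-MyrAkt2 mice aged 2 months, 3 Lck-MyrAkt2 tumors of founder line 420 and 3 of founder line 72, both at 5 months. A gene was represented by its brightest array feature that names no other gene, which gave 22180 genes, and 12932 of these lay above the array median on at least 3 arrays and were tested.

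The Lck promoter drives a transgene in developing T cells of the thymus. Dlx5 is a homeobox transcription factor best known for directing the growth of bone, the face and the forebrain, where Dlx proteins bind DNA with a TAATT core. Thymocytes pass from a CD4- CD8- stage through a CD4+ CD8+ stage, at which the recombination enzymes assemble the T cell receptor alpha chain, to CD4+ or CD8+ cells that gain the receptors needed to leave the thymus. MyrAkt2 is Akt2, a kinase of the PI3K pathway, made constantly active by anchoring it to the membrane, and the double transgenic tumors carry both transgenes.

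The values are log2 expression summaries as deposited, and differences are given as lymphomas minus WT with the standard error (SE) of the model. Wherever 3 values are listed for the lymphomas they follow the order of founder lines 63, 47 and 86, and WT values follow littermates 1, 2 and 3. Of the 12932 genes tested, 3828 (29.6%) passed an adjusted p of 0.05 in limma, 1772 of them higher (13.7%) and 2056 lower (15.9%) in the lymphomas, and the median difference over all tested genes was 0.00463. Of the called genes 46.3% were higher, and 59.5% (2360 higher and 1605 lower) when each array was shifted to the same median over the tested genes, a setting chosen after seeing the data. Higher calls also outnumbered lower ones with quantile scaling (2054 and 1835), without the filter on dim genes (2234 and 1960) and without the line 63 lymphoma (1679 and 1575). Without WT 1 or WT 2 the fit called 2398 or 2372 genes. At least 2-fold, 282 genes (2.18%) were higher and 626 (4.84%) lower. The 3 values of the lymphomas and the 3 WT values did not overlap for 52.8% of the tested genes, and 29.3% were both called and without overlap. Across genes, the lymphomas correlated with each other at 0.948 to 0.964 and the WT arrays at 0.992 to 0.993, and arrays of the opposite kind at 0.884 to 0.902. The array medians of the series lay between 6.32 and 6.46. A value under the median of its array may be background, which leaves the fold of such a gene uncertain. In these bulk samples, fewer cells of a type and less RNA per cell cannot be told apart.

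The lymphomas also differed from each other and from WT in transcripts linked to sex, which were examined after the values were seen. Eif2s3y, on the Y chromosome, lay at 4.13, 10.06 and 4.73 in the lymphomas, against 9.89, 10.40 and 10.45 in WT. Xist, the RNA that coats the inactive X chromosome, lay at 12.42, 5.57 and 5.73 in the lymphomas, against 5.80, 5.15 and 5.61 in WT. Thus the line 47 lymphoma matched the 3 WT samples in both, the line 63 lymphoma had Xist and little Y-linked RNA, and the line 86 lymphoma had little of either. The part of sex in the differences below was not tested beyond a fit of the line 47 lymphoma alone against WT, which called 973 genes higher and 934 lower.

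The 15 genes with the largest rise were led by Dlx5 itself, which lay at 11.45, 12.08 and 12.30 in the lymphomas, against 5.82, 5.76 and 5.70 in WT, a difference of 6.18 ± 0.26 (adjusted p = 1.44e-08). Bex1, an X-linked gene first described in brain, lay at 9.71, 10.57 and 9.52 in the lymphomas, against 4.67, 5.24 and 5.32 in WT, and rose by 4.86 ± 0.35 (adjusted p = 2.21e-06). Glp1r, the receptor for the incretin hormone GLP-1 on pancreatic beta cells, lay at 9.58, 10.65 and 10.52 in the lymphomas, against 5.83, 5.48 and 5.43 in WT, and rose by 4.67 ± 0.30 (adjusted p = 9.7e-07). In each of these genes all lymphomas lay far above all WT samples, with the WT samples below the array median.

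Mt2, a metallothionein that binds zinc and copper, lay at 10.42, 9.80 and 10.27 in the lymphomas, against 6.62, 6.61 and 6.77 in WT, and rose by 3.50 ± 0.56 (adjusted p = 0.000837). Its neighbor Mt1, named after its values were seen, rose by 2.42 ± 0.69 (adjusted p = 0.0178), a call that was lost without the line 63 lymphoma, the line 86 lymphoma or WT 1 (adjusted p up to 0.0537). Saa3, an acute-phase serum amyloid protein, lay at 10.32, 10.91 and 8.92 in the lymphomas, against 6.99, 6.65 and 7.21 in WT, and rose by 3.10 ± 0.69 (adjusted p = 0.00513). The other secreted signals among the 15 were Il10, a cytokine that dampens inflammation, up by 2.77 ± 0.74 (adjusted p = 0.013), and Cxcl13, a chemokine that attracts B cells, up by 2.76 ± 0.56 (adjusted p = 0.00308). Il10 missed the threshold when the line 47 lymphoma alone was set against WT (adjusted p = 0.0649).

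The other genes of this set have varied roles. Adamts20 encodes a secreted metalloprotease and rose by 3.28 ± 0.43, and Zdhhc2, a palmitoyltransferase, rose by 3.11 ± 0.32. Dppa2, a nuclear protein of early embryo and germ cells, lay at 9.24, 9.40 and 7.37 in the lymphomas, against 5.56, 5.34 and 5.96 in WT. Mboat2, a lysophospholipid acyltransferase, rose by 3.02 ± 0.41, and Sh3gl3, an endophilin that shapes membranes, rose by 2.99 ± 0.49. Nnat, an imprinted gene of neurons and endocrine cells, lay at 10.19, 11.61 and 8.96 in the lymphomas, against 7.83, 7.77 and 7.21 in WT. The adjusted p of these 6 genes ran from 4.28e-05 (Zdhhc2) to 0.00686 (Nnat).

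Bves and Popdc3, neighbors on chromosome 10, encode Popeye domain proteins, cyclic AMP-binding membrane proteins of heart and skeletal muscle. Bves lay at 6.83, 10.66 and 8.39 in the lymphomas, against 5.47, 5.44 and 5.83 in WT (difference 3.04 ± 0.85, adjusted p = 0.017). Popdc3 lay at 6.84, 10.97 and 7.42 in the lymphomas, against 5.63, 5.72 and 5.70 in WT (difference 2.73 ± 0.83, adjusted p = 0.0246). The line 47 lymphoma was the highest for both, and without it neither was called (adjusted p = 0.0722 for Bves and 0.072 for Popdc3). The Bves call was also lost without WT 1 or WT 2, and the Popdc3 call without any 1 of the WT samples or with the 6 arrays alone (adjusted p = 0.0602). Of the 15 genes, 9 lay below the array median in all 3 WT samples.

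**Figure D1:**
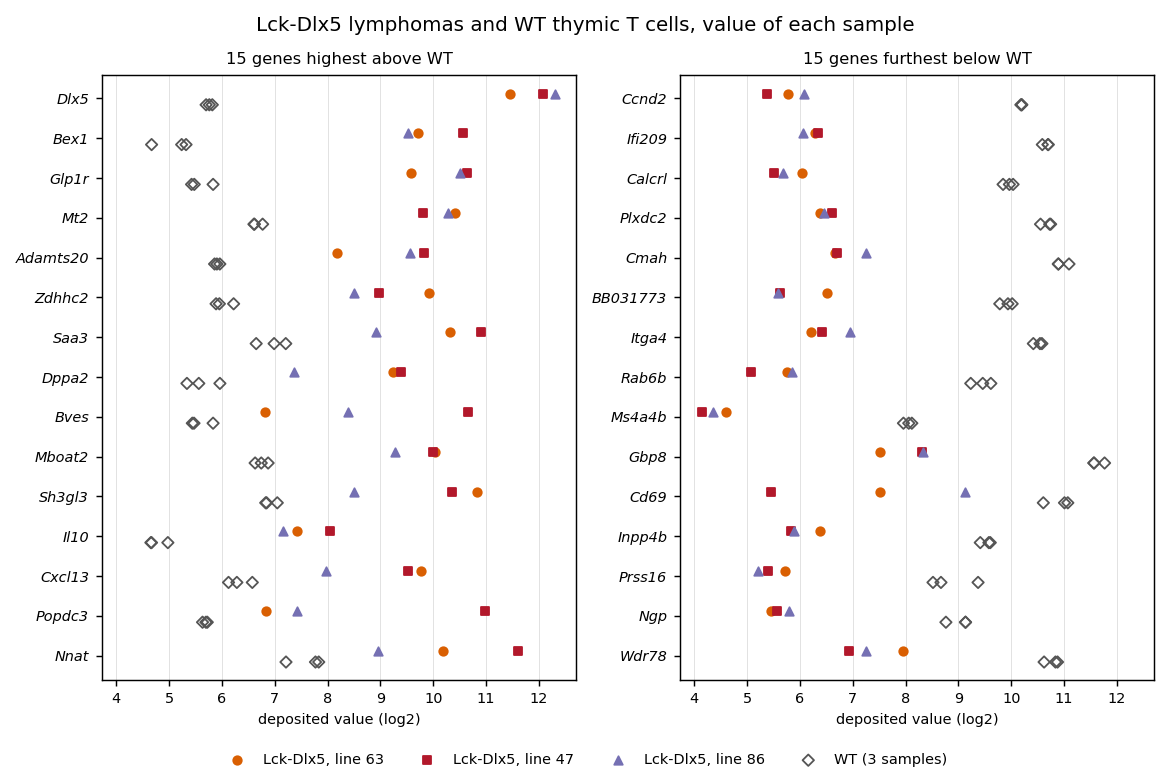
Deposited log2 value (horizontal axis) of each sample for the 15 genes furthest above WT (left) and the 15 furthest below WT (right), ordered by the difference. Filled symbols are the 3 Lck-Dlx5 lymphomas by founder line and open diamonds the 3 WT samples; no lymphoma overlaps a WT sample, and Bves, Popdc3 and Cd69 are the most spread among the lymphomas.

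The sequences before the starts of Mt2 and Saa3, both among the 15 highest genes, are shown because each holds a short motif that was searched for. The third is shown because it belongs to an antigen presentation gene described below. Whether a homeobox factor acts on Saa3 was not tested. RefSeq promoters (GRCm38.p6) were matched for 10115 of the tested genes and for 9 of the 15 highest, and the 250 bases before each start were searched on both strands. In Mt2 the capitals mark the core of the metal response element (TGCGCNC or TGCACNC), in Saa3 the homeobox core TAATT, and in H2-T23 the core of the interferon-stimulated response element (GAAA, any 2 bases, GAAA), each on either strand.
Mt2 (chr8:94172368-94172617, plus strand): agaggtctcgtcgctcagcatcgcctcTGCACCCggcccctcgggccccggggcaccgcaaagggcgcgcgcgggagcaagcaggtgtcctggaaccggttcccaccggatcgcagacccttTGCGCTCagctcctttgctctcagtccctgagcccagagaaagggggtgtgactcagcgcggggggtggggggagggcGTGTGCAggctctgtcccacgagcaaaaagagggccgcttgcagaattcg
Saa3 (chr7:46715677-46715926, minus strand): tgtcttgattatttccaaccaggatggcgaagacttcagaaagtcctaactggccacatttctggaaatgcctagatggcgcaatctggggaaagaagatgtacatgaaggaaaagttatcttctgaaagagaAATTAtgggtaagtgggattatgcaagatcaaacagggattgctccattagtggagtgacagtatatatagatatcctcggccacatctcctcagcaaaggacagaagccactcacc
H2-T23 (chr17:36032702-36032951, minus strand): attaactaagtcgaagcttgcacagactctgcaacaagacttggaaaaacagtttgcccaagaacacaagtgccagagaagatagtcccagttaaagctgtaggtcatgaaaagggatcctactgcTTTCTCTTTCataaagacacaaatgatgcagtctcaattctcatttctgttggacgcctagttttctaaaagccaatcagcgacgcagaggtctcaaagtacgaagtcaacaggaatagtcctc
Mt2 held 3 matches to the metal response core, which 33.1% of the tested genes with a promoter and 23.8% of all 27025 genes with a RefSeq promoter hold at least once. Saa3 was the only 1 of the 9 highest genes with a promoter that held TAATT, and it also held the interferon response core, overlapping the marked letters. Among genes with a promoter, the homeobox core was found in 18% of those called higher, in 19.2% of those called lower, in 17.9% of those tested and in 27.8% of all. A match is a match of letters only.

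The 15 genes with the largest fall included cyclin D2 (Ccnd2), a partner of the G1 kinases, at 5.78, 5.38 and 6.08 in the lymphomas, against 10.20, 10.20 and 10.18 in WT (difference -4.45 ± 0.83, adjusted p = 0.00194). Ifi209, an interferon-inducible p200 protein, lay at 6.29, 6.35 and 6.06 in the lymphomas, against 10.69, 10.59 and 10.70 in WT (difference -4.43 ± 0.33, adjusted p = 2.44e-06). Cmah, the hydroxylase that makes N-glycolylneuraminic acid from N-acetylneuraminic acid, lay at 6.66, 6.70 and 7.25 in the lymphomas, against 10.89, 11.09 and 10.89 in WT (difference -4.09 ± 0.23, adjusted p = 2.67e-07). In all of these the gap between the groups far exceeded the range within each.

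Among the 15, Calcrl, the receptor chain for adrenomedullin and calcitonin gene-related peptide, fell by 4.21 on the log2 scale (SE 0.60), and Plxdc2, a plexin domain membrane protein, fell by 4.19 (SE 0.39). Itga4, the alpha 4 integrin chain that binds fibronectin and VCAM1, lay at 6.21, 6.41 and 6.94 in the lymphomas, against 10.54, 10.58 and 10.42 in WT (difference -3.99 ± 0.61, adjusted p = 0.00061). Ms4a4b, a tetraspan protein of T cells, fell by 3.68 (SE 0.31). Cd69, an early activation antigen that holds T cells in tissue by acting on S1pr1, lay at 7.51, 5.45 and 9.13 in the lymphomas, against 11.01, 11.07 and 10.61 in WT (adjusted p = 0.0125), and its call was lost without the line 47 lymphoma (adjusted p = 0.0555).

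Inside the cell, Inpp4b, a phosphatase of PI3K lipids, lay at 6.38, 5.83 and 5.90 in the lymphomas, against 9.41, 9.57 and 9.60 in WT (difference -3.49 ± 0.38, adjusted p = 6.93e-05). Gbp8, a guanylate-binding protein, fell by 3.58 (SE 0.32), Rab6b, a small GTPase of vesicle transport, fell by 3.88 (SE 0.42), and Wdr78, a dynein component, fell by 3.40 (SE 0.51). BB031773, a transcript for which no role is given here, lay at 6.52, 5.62 and 5.58 in the lymphomas, against 9.78, 10.02 and 9.94 in WT. The remaining 2 genes are markers of other thymic cells: Prss16, a serine protease of thymic epithelium, fell by 3.41 (SE 0.27), and Ngp, a neutrophil granule protein, fell by 3.41 (SE 0.44). Of the 15 genes, 8 lay below the array median in all 3 lymphomas.

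The label T cell lymphoma was checked with genes that define T cells. Of the 11 tested members, 10 lay above the array median in every lymphoma, the exception being Cd2 in line 47 (5.42), and their summed linear level was 27195 to 33241 in the lymphomas and 45780 to 48260 in WT. Of the 11, 3 fell and 0 rose (27.3% called, near the 29.6% of all tested genes), with a median difference of -0.65. Cd3g, a chain of the T cell receptor complex, lay at 12.09, 11.81 and 11.71 in the lymphomas, against 12.62, 12.71 and 12.75 in WT (adjusted p = 0.000542). Cd4 lay at 11.83, 11.32 and 10.90 in the lymphomas, against 12.45, 12.60 and 12.53 in WT (difference -1.18 ± 0.35, adjusted p = 0.0211). Cd8a lay at 12.26, 11.96 and 11.93 in the lymphomas, against 12.60, 12.77 and 12.74 in WT, and did not pass (adjusted p = 0.256). Both coreceptors were thus measured at a high level in all 3 lymphomas. The calls of Cd4 and of Cd3e (difference -0.42, adjusted p = 0.0318) were lost in 5 of the 6 fits that left out 1 sample, that is in all but the fit without the line 63 lymphoma (adjusted p up to 0.0855 for Cd4 and 0.0993 for Cd3e).

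Of 3 tested genes of the pre-T cell receptor and recombination 2 fell. Rag2, which with Rag1 cuts DNA during receptor assembly, lay at 8.76, 7.34 and 8.81 in the lymphomas, against 10.84, 10.92 and 11.02 in WT (difference -2.62 ± 0.48, adjusted p = 0.0018). Dntt, the polymerase that adds bases at the joins, lay at 10.43, 8.95 and 10.46 in the lymphomas, against 12.03, 12.11 and 12.15 in WT (difference -2.15 ± 0.57, adjusted p = 0.0133, and 0.0588 without the line 47 lymphoma). Kit, the stem cell factor receptor of early progenitors, fell by 1.06 (adjusted p = 0.00996). The 9 tested early thymocyte genes (44.4% called, 3 of them lower and 1 higher) had a median difference of 0.94, and 1.20 for the 6 progenitor and double-negative ones. These 6 moved in both directions, so their median does not describe a shift of stage. They ran from -1.83 for Il2ra, which did not pass (adjusted p = 0.157), to 2.43 for Dtx1. Dtx1, an E3 ligase induced by Notch, was the 1 member that rose, at 11.36, 10.16 and 11.45 in the lymphomas, against 8.63, 8.50 and 8.55 in WT (difference 2.43 ± 0.77, adjusted p = 0.0305). It missed the threshold in each fit that left out 1 sample other than the line 47 lymphoma (adjusted p up to 0.0913). Hes1, a Notch target, and Notch1 had differences of 1.43 and 1.11 and did not pass (adjusted p = 0.113 and 0.267). Of the 6 tested receptor variable segments, 4 fell, with Trav3-4 at 2.57, 5.51 and 2.79 in the lymphomas, against 9.21, 9.27 and 9.19 in WT (difference -5.60 ± 1.09, adjusted p = 0.00244). Segments resemble each other in sequence, so their features may read more than 1 segment.

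In proximal T cell receptor signaling, of 30 genes tested 13 fell and 0 rose (43.3% called, against 29.6% of all tested genes, median difference -0.66), among them 3 of 6 kinases, 6 of 11 adaptors and 3 of 7 phosphatases and ligases that limit the signal. Dgka, the kinase that removes diacylglycerol, lay at 11.16, 8.57 and 11.33 in the lymphomas, against 12.52, 12.55 and 12.61 in WT (difference -2.21 ± 0.61, adjusted p = 0.0154). Txk and Prkcq, kinases that act below the receptor, both fell by 1.72 (adjusted p = 0.0318 and 0.037), and both calls were lost without the line 47 lymphoma or any 1 of the WT samples (adjusted p up to 0.119 and 0.143). The central kinase Zap70 lay at 10.11, 9.83 and 10.28 in the lymphomas, against 10.16, 10.12 and 10.05 in WT (difference -0.04 ± 0.21), and the adaptor Lat at 12.16, 12.15 and 12.26 in the lymphomas, against 12.37, 12.42 and 12.31 in WT (difference -0.17 ± 0.13). With 1 sample left out, 6 to 11 of the 30 fell, 6 without WT 2 or WT 3 and 7 without WT 1 or the line 47 lymphoma.

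In calcium handling, 8 of 23 fell and 2 rose (43.5% called, against 29.6% of all tested genes). Orai2, a store-operated calcium channel, lay at 7.26, 7.45 and 7.51 in the lymphomas, against 8.29, 8.24 and 8.29 in WT (adjusted p = 0.00068). The calcium pumps of the endoplasmic reticulum moved apart: Atp2a3, the form typical of blood cells, fell by 0.85 ± 0.22 (adjusted p = 0.0124), and Atp2a2, the form of most tissues, rose by 0.70 ± 0.11 (adjusted p = 0.000653). In fits without 1 sample, 3 to 7 of the 23 fell, 3 without WT 1 and 5 without WT 2, WT 3, the line 47 lymphoma or the line 86 lymphoma.

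Of 33 interleukin receptor, Jak and Stat genes tested, 18 fell and 2 rose (60.6% called, median difference -0.69). Il7r, the receptor chain for the survival cytokine IL-7, lay at 7.24, 7.61 and 6.84 in the lymphomas, against 10.50, 10.50 and 10.46 in WT (difference -3.26 ± 0.50, adjusted p = 0.000609). Il4ra, the chain shared by the IL-4 and IL-13 receptors, lay at 8.23, 7.72 and 7.48 in the lymphomas, against 9.88, 9.87 and 9.89 in WT (difference -2.07 ± 0.25, adjusted p = 0.000122). Both groups were clearly apart for these genes. Il21r fell by 1.66 (SE 0.37), and Il2rb, the chain shared by the IL-2 and IL-15 receptors, fell by 1.77 (SE 0.50), a call lost without the line 47 lymphoma or WT 1 (adjusted p up to 0.0592). The 2 that rose, named after their values were seen, were Il12rb2, a chain of the IL-12 receptor, at 9.82, 9.73 and 9.74 in the lymphomas, against 8.38, 8.19 and 8.13 in WT (adjusted p = 0.000849), and Il9r, up by 1.28 ± 0.35 (adjusted p = 0.014, and 0.0577 without the line 47 lymphoma). When 1 sample was dropped 12 to 16 fell, and with the line 47 lymphoma alone 8 fell.

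Of 19 chemokine and lipid receptors that guide T cells, 8 fell and 0 rose (42.1% called, median difference -0.49). Ccr7, which brings mature thymocytes to the medulla and T cells to lymph nodes, lay at 7.51, 7.17 and 8.06 in the lymphomas, against 10.36, 10.35 and 10.52 in WT (difference -2.83 ± 0.34, adjusted p = 0.000134). S1pr1, the sphingosine 1-phosphate receptor needed to leave the thymus, lay at 6.05, 6.26 and 6.02 in the lymphomas, against 8.13, 7.97 and 8.25 in WT (difference -2.01 ± 0.30, adjusted p = 0.000554). Ccr8 fell by 1.78 (SE 0.31). Ccr9, which holds thymocytes near thymic epithelium, lay at 8.27, 7.46 and 8.84 in the lymphomas, against 10.08, 10.19 and 10.09 in WT, and did not pass (adjusted p = 0.0518).

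Of 37 integrin, adhesion and actin genes, 19 fell and 0 rose (51.4% called, median difference -0.50). They included 6 of 10 integrin chains and 10 of 15 actin regulators. Itgb3, a chain of the vitronectin receptor, lay at 6.37, 6.34 and 6.32 in the lymphomas, against 8.32, 8.22 and 8.19 in WT (adjusted p = 0.00384), and Itga5, a chain of the fibronectin receptor, fell by 1.57 (SE 0.22, adjusted p = 0.00045). With 1 sample left out 11 to 17 fell, fewest without WT 3, and 12 fell without WT 1, WT 2 or the line 47 lymphoma. With the line 47 lymphoma alone 8 fell.

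The Gimap genes, a cluster of GTPases that support lymphocyte survival, had the lowest median, -2.01, of the lists with at least 8 tested members, with 6 of 8 down and 0 up (75% called). Gimap4 lay at 6.46, 5.68 and 8.44 in the lymphomas, against 9.84, 9.77 and 10.02 in WT (difference -3.01 ± 0.56, adjusted p = 0.00188). Gimap3 lay at 6.01, 5.82 and 6.83 in the lymphomas, against 8.74, 8.52 and 8.95 in WT (difference -2.51 ± 0.29, adjusted p = 9.18e-05). The line 86 lymphoma was the closest to WT in both. Of 18 costimulatory and inhibitory receptors, 9 fell and 0 rose (50% called, median difference -1.40). Btla, an inhibitory receptor, lay at 5.94, 5.85 and 5.89 in the lymphomas, against 8.57, 8.64 and 8.72 in WT (adjusted p = 0.00126), and Icos, a costimulatory receptor, at 7.12, 6.60 and 7.35 in the lymphomas, against 8.94, 9.27 and 9.52 in WT (adjusted p = 0.000982). Cd226, an activating adhesion receptor, fell by 2.61 (SE 0.58).

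**Figure D2:**
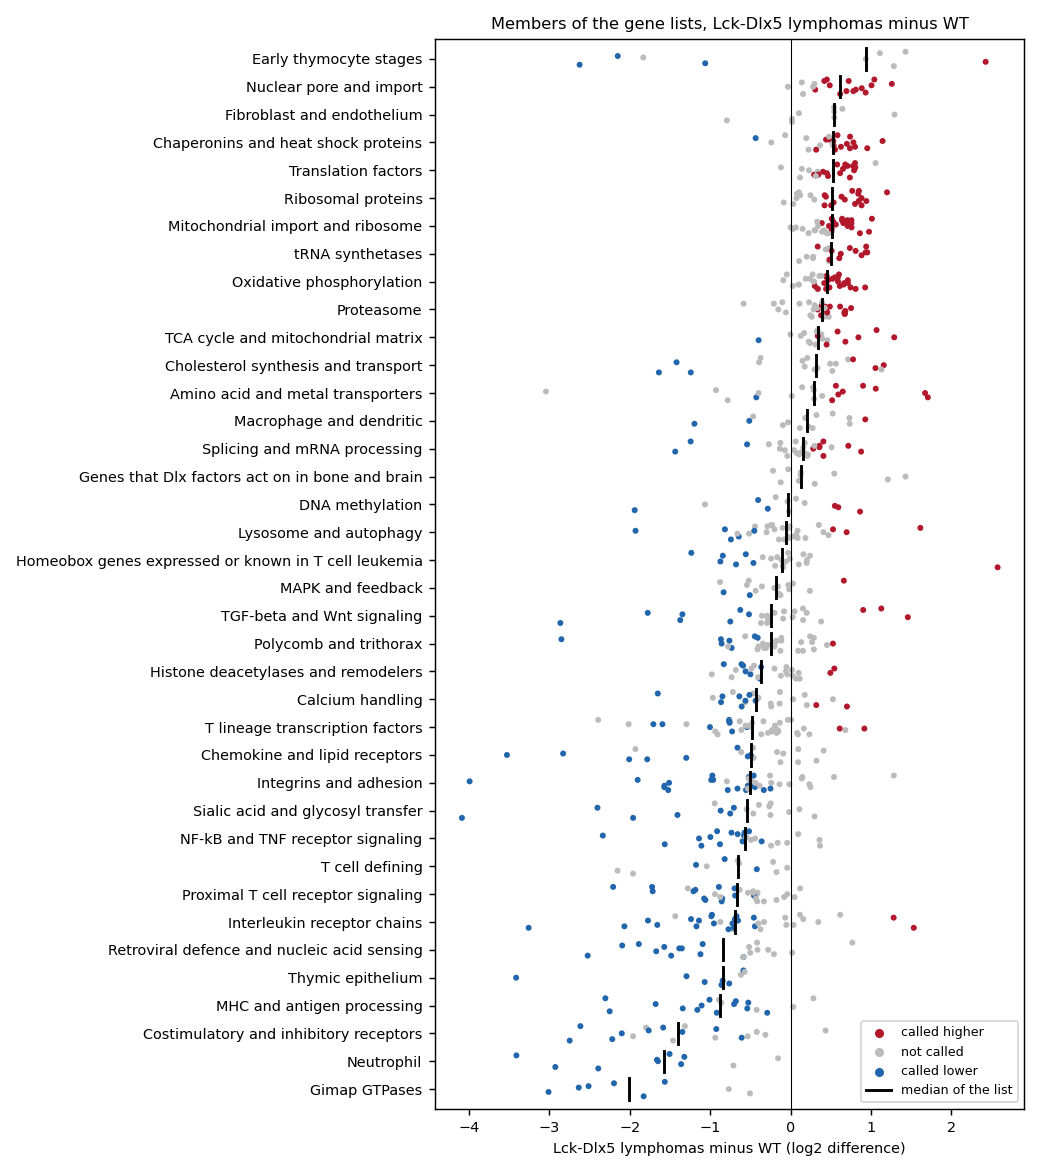
Log2 difference of Lck-Dlx5 lymphomas minus WT (horizontal axis) of each tested member of the gene lists with at least 8 tested members, ordered by the list median (black bar). Red points were called higher, blue points lower and gray points were not called; Gimap GTPases have the lowest median (-2.01), and nuclear pore and import (0.62) is the highest of the lists with no member called lower.

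In MHC and antigen processing, 13 of 18 fell and 0 rose (72.2% called, median difference -0.88), 8 of 11 in class I and 5 of 7 in class II. Nlrc5, the transactivator of class I genes, lay at 5.60, 5.64 and 5.61 in the lymphomas, against 7.99, 7.79 and 7.98 in WT (difference -2.30 ± 0.24, adjusted p = 4.39e-05). H2-K1, a classical class I heavy chain, lay at 8.34, 8.72 and 8.55 in the lymphomas, against 10.84, 10.61 and 10.91 in WT (difference -2.25 ± 0.36, adjusted p = 0.000886). H2-T23, the nonclassical class I chain whose promoter is shown above, lay at 8.07, 7.44 and 8.50 in the lymphomas, against 9.41, 9.32 and 9.31 in WT (adjusted p = 0.0064). H2-Aa, a class II chain normally made by antigen-presenting cells rather than by mouse T cells, fell by 1.68 (SE 0.40). Members of this family are close in sequence, so their features may share signal. In fits without 1 sample 7 to 9 fell, fewest without WT 3, and 8 fell without WT 1. With the line 47 lymphoma alone 5 fell.

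Of 20 genes of retroviral defense and nucleic acid sensing, 11 fell and 0 rose (55% called, median difference -0.84). Samhd1, which destroys deoxynucleotides and restricts retroviruses, lay at 7.35, 7.64 and 7.23 in the lymphomas, against a mean of 9.93 ± 0.08 in WT (SD, n = 3; difference -2.52 ± 0.43, adjusted p = 0.00123). Slfn1 and Slfn2, Schlafen proteins tied to T cell quiescence, fell by 2.09 (SE 0.24) and 1.67 (SE 0.31), and Ifih1, a sensor of double-stranded RNA, fell by 1.89 (SE 0.41). The Schlafen family was mixed, with 3 of 8 tested genes down, 4 not called and Slfn3 up by 1.06 (adjusted p = 0.0147). The guanylate-binding and p200 families were looked at as wholes after Gbp8 and Ifi209 were seen among the lowest genes. All 5 tested Gbp genes fell, and the other 4 fell by 2.37 to 2.53. Gbp10 lay at 7.21, 7.21 and 7.50 in the lymphomas, against 9.93, 9.72 and 9.81 in WT (adjusted p = 8.81e-06). In the p200 cluster of chromosome 1, 5 of 10 fell, among them Ifi208 by 2.87 (SE 0.26), Ifi213 by 2.45 (SE 0.30), and Ifi214 by 2.36 (SE 0.27). Members of both families are near copies of each other, so signal may be shared among them. Among genes with a promoter, the interferon response core was found in 7.31% of those called at least 2-fold lower, against 3.18% of all tested, a difference that was not tested. It was found in 0 of the 8 such genes among the retroviral defense and sensing genes that fell, in 0 of 9 among the 15 lowest genes and in 2 of 9 among the MHC genes that fell.

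Of 23 NF-kB and TNF receptor genes 14 fell and 0 rose (60.9% called, median difference -0.57), including 8 of 10 subunits and inhibitors. Rel, the c-Rel subunit, lay at 7.38, 7.48 and 7.47 in the lymphomas, against 9.93, 9.62 and 9.80 in WT (difference -2.34 ± 0.35, adjusted p = 0.000578). Traf1, an adaptor of TNF receptors, fell by 1.57 (SE 0.18) and Nfkb2 by 1.14 (SE 0.18). In TGF-beta and Wnt signaling, 7 of 24 fell and 3 rose (41.7% called). Tle4, a Groucho corepressor, lay at 6.08, 5.82 and 5.42 in the lymphomas, against 8.62, 8.65 and 8.65 in WT (adjusted p = 0.00232), while Nkd1, an antagonist of Wnt signaling that is itself a Wnt target, lay at 7.44, 7.19 and 7.78 in the lymphomas, against 6.13, 5.94 and 5.96 in WT (adjusted p = 0.00294). When 1 sample was dropped 3 to 5 of the 24 fell, 3 without WT 1 and 4 without WT 2, the line 63 lymphoma or the line 86 lymphoma, and 1 rose without WT 1, WT 2 or the line 47 lymphoma.

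Many genes of protein synthesis and of mitochondria rose. Of 22 translation factors 15 rose and 0 fell (68.2% called, median difference 0.52), of 18 tRNA synthetases 11 rose and 0 fell (61.1%, median 0.50), and of 24 ribosomal proteins 16 rose and 0 fell (66.7%, median 0.52). Eef1b2, an exchange factor of translation elongation, lay at 11.66, 11.69 and 11.72 in the lymphomas, against 10.96, 10.75 and 10.94 in WT (adjusted p = 0.000102). Vars, the valine tRNA synthetase, lay at 9.83, 10.39 and 10.25 in the lymphomas, against 9.27, 9.03 and 9.30 in WT (adjusted p = 0.0022), and Rps19, a small-subunit ribosomal protein, rose by 0.88 ± 0.13 (adjusted p = 0.000477). The spread between samples was small against the difference for Eef1b2. It was wider for Vars, where the lymphomas ran from 9.83 to 10.39, though all lay above WT. With 1 sample left out, 9 to 15 translation factors rose (fewest without the line 86 lymphoma or WT 2), 6 to 11 tRNA synthetases (fewest without WT 2, and 7 without the line 86 lymphoma, WT 1 or WT 3) and 12 to 16 ribosomal proteins. With the line 47 lymphoma alone the counts were 5, 4 and 10.

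All 8 subunits of the CCT chaperonin, which folds actin and tubulin, rose, as did 4 of 5 mitochondrial chaperones. Cct8 lay at 10.89, 10.93 and 11.13 in the lymphomas, against a mean of 10.03 ± 0.03 in WT (SD, n = 3; difference 0.95 ± 0.19, adjusted p = 0.00303), and Hspa9, the chaperone of mitochondrial import, at 11.24, 11.31 and 11.43 in the lymphomas, against 10.21, 10.09 and 10.24 in WT (difference 1.15 ± 0.17, adjusted p = 0.000552). Chaperones of the cytosol and reticulum were mixed, with 3 of 10 up and 1 down. Of 19 nuclear pore and import genes 14 rose and 0 fell (73.7% called, median 0.62), led by Ipo5, an importin, at 10.50, 10.73 and 10.99 in the lymphomas, against 9.52, 9.48 and 9.43 in WT (difference 1.26 ± 0.21, adjusted p = 0.000967).

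Of 35 mitochondrial import and ribosome genes 22 rose and 0 fell (62.9%, median 0.51), with 10 of 11 import receptors and channels among them. Of 35 oxidative phosphorylation genes 22 also rose and 0 fell (62.9%, median 0.45): 12 of 14 in complexes II to IV, 8 of 14 in complex I and 2 of 7 in complex V. Cox5a, a cytochrome c oxidase subunit, lay at 9.17, 9.26 and 9.46 in the lymphomas, against 8.33, 8.50 and 8.28 in WT (adjusted p = 0.0027), and Tomm40, the outer membrane channel, rose by 0.86 ± 0.15 (adjusted p = 0.00133). In the TCA cycle and matrix, 7 of 19 rose and 1 fell (42.1%), with Suclg2, a succinyl-CoA ligase subunit, up by 1.29 ± 0.25 (adjusted p = 0.0023) and Fh1, fumarate hydratase, up by 1.07 ± 0.18 (adjusted p = 0.00113). In fits without 1 sample, 13 to 24 import and ribosome genes rose (13 without the line 47 lymphoma or WT 2, and 14 without the line 86 lymphoma or WT 1), 12 to 19 oxidative phosphorylation genes (12 without the line 86 lymphoma, WT 1 or WT 2, and 14 without the line 47 lymphoma) and 4 to 7 TCA cycle genes (4 without the line 86 lymphoma). With the line 47 lymphoma alone the counts were 12, 6 and 2.

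Of 31 proteasome genes 13 rose and 0 fell (41.9%, median 0.39). The immunoproteasome subunits and activators, which interferon induces, had 1 of 6 up and a median of -0.13, and Psmb8 lay at 9.89, 10.19 and 10.31 in the lymphomas, against 10.11, 10.06 and 10.38 in WT. When 1 sample was dropped 5 to 17 rose, fewest without the line 86 lymphoma, and 6 or 7 rose without WT 1, WT 2 or the line 47 lymphoma. Of 19 amino acid and metal transporters 8 rose and 1 fell (47.4% called). Slc7a5, the light chain of the large neutral amino acid carrier, lay at 10.99, 11.18 and 11.07 in the lymphomas, against 9.41, 9.37 and 9.33 in WT (difference 1.71 ± 0.24, adjusted p = 0.000379). Tfrc, the transferrin receptor for iron uptake, lay at 11.56, 11.25 and 10.75 in the lymphomas, against 9.54, 9.49 and 9.50 in WT (difference 1.67 ± 0.20, adjusted p = 0.000102), and Slc39a8, a zinc importer, rose by 1.06 ± 0.25 (adjusted p = 0.00728).

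Of 40 transcription factors of the T lineage 8 fell and 2 rose (25% called, near the 29.6% of all genes). Bcl6, a transcriptional repressor found in germinal center and follicular helper cells, fell by 1.71 ± 0.50 (adjusted p = 0.0211), and Id3, an inhibitor of E proteins, by 1.59 ± 0.48 (adjusted p = 0.0227). Both calls were sensitive to single samples, Bcl6 being lost without the line 86 lymphoma, WT 1 or WT 2 (adjusted p up to 0.0667) and Id3 without the line 63 or line 47 lymphoma, WT 1 or WT 2 (adjusted p up to 0.0722). With 1 sample left out 2 to 7 of the 40 fell, 2 without WT 1, 3 without WT 2, 4 without the line 47 lymphoma and 5 without WT 3 or the line 86 lymphoma. Of 22 other homeobox genes tested 31.8% were called, near the 29.6% of all tested genes. Pbx3, a TALE cofactor of Hox proteins, was the 1 that rose, at 8.89, 9.20 and 8.82 in the lymphomas, against 6.47, 6.07 and 6.64 in WT (difference 2.58 ± 0.61, adjusted p = 0.00714), and 6 fell, with Pou6f1 the lowest (difference -1.23 ± 0.26, adjusted p = 0.00424).

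None of the 10 tested genes that Dlx factors act on in bone and brain passed in limma, 0 of them even at an unadjusted p under 0.05, and 15 of the 25 listed were too low to test or had no feature of their own. The largest differences among the 10 were those of Nrp2, a semaphorin receptor, at 6.91, 7.38 and 8.28 in the lymphomas, against 6.11, 6.09 and 6.08 in WT (1.43 ± 0.88, adjusted p = 0.238), and Dlx2, at 7.26, 8.83 and 7.80 in the lymphomas, against 6.71, 6.82 and 6.73 in WT (1.21 ± 0.71, adjusted p = 0.216). In both genes every lymphoma lay above every WT sample, and 4 of the 10 genes had no overlap between the groups, against 52.8% of all tested genes. With the 6 arrays alone 3 of the 10 were called higher, among them Nrp2 (adjusted p = 0.0107) and Dlx2 (adjusted p = 0.031). Dlx6, the neighbor of Dlx5, lay at 6.10, 5.67 and 5.50 in the lymphomas, against 5.50, 5.80 and 5.59 in WT, where the groups overlapped. An array feature shared by Dlx1as and Metap1d, not part of these counts, lay at 7.59, 8.03 and 7.47 in the lymphomas, against 5.81, 5.72 and 6.00 in WT. Its difference was 1.85 ± 0.21 (adjusted p = 0.00017), and which of the 2 genes it read was not tested.

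Of 30 Polycomb and trithorax genes 7 fell and 1 rose (26.7% called, near the 29.6% of all tested genes), led by Kdm5b, a demethylase of histone H3 lysine 4, at 7.71, 6.75 and 7.46 in the lymphomas, against a mean of 10.16 ± 0.14 in WT (SD, n = 3; difference -2.85 ± 0.56, adjusted p = 0.00253). In fits without 1 sample 3 to 6 fell, 3 without WT 1 or WT 2 and 4 without WT 3. Tet2, which oxidizes 5-methylcytosine, lay at 8.60, 7.16 and 5.66 in the lymphomas, against 9.02, 9.03 and 9.18 in WT (difference -1.94 ± 0.55, adjusted p = 0.0186), with the line 86 lymphoma lowest, and was not called without that lymphoma, WT 2 or WT 3 (adjusted p up to 0.0734). Zbtb38, a reader of methylated DNA, rose by 0.87 ± 0.11 (adjusted p = 0.000182), and Dnmt1, the maintenance methyltransferase, by 0.59 ± 0.11 (adjusted p = 0.00228). In sialic acid and glycosyl transfer, 7 of 17 fell and 0 rose (41.2% called), with Cmah the lowest and St8sia6, a sialyltransferase, at 5.74, 5.75 and 5.64 in the lymphomas, against 7.09, 7.13 and 7.14 in WT (adjusted p = 7.6e-06). When 1 sample was dropped 4 or 5 of the 17 fell, 4 of them without WT 1, WT 2 or WT 3.

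Of 12 tested DNA methylation genes, 3 rose and 3 fell (50% called), and of 25 histone deacetylases and remodelers 2 rose and 7 fell (36%). In splicing and mRNA processing 7 of 27 rose and 3 fell (37%), in MAPK signaling and feedback 1 of 16 rose and 2 fell (18.8%), and of 6 phosphatases of PI3K lipids 3 fell and 0 rose. These counts were sensitive to single samples: DNA methylation falls numbered 0 without the line 86 lymphoma, WT 2 or WT 3 and 1 without WT 1, remodeler falls 4 without the line 63 lymphoma, WT 1 or WT 2, splicing rises 3 without the line 86 lymphoma, WT 1 or WT 2, and MAPK falls 0 without any 1 of the WT samples.

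Of 18 cholesterol genes 33.3% were called. Of 5 uptake and efflux genes 3 fell and 0 rose, among them Abca1 and Abcg1, the cholesterol exporters, by 1.24 (SE 0.30) and 1.42 (SE 0.28), and Mylip, the ligase that degrades the LDL receptor, by 1.64 (SE 0.38). Of 13 synthesis genes 3 rose and 0 fell, but 0 of them rose without the line 47 lymphoma, the line 86 lymphoma, WT 1 or WT 2, and 1 rose without WT 3. In the lysosome and autophagy list 5 of 32 fell and 3 rose (25% called, below the 29.6% of all tested genes), with Gabarapl1, an autophagosome protein, at 5.73, 5.94 and 5.81 in the lymphomas, against 7.65, 7.92 and 7.69 in WT (adjusted p = 0.000236), and Lgmn, the lysosomal protease legumain, up by 1.62 ± 0.41 (adjusted p = 0.00996).

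Markers of other cells of the thymus were measured in the same arrays. Summed levels are linear and cover all members of a list with a feature of their own, tested or not. Of 10 neutrophil genes 8 fell, and their summed level was 533 to 592 in the lymphomas and 1710 to 2396 in WT, with 8 members below the array median in all 3 lymphomas. S100a8, a calprotectin subunit, lay at 5.20, 5.20 and 5.54 in the lymphomas, against 8.03, 8.52 and 8.18 in WT (adjusted p = 0.000504). Of 9 thymic epithelial genes 7 fell (summed level 924 to 1100 in the lymphomas and 1879 to 2297 in WT), including Krt18 by 1.29 (SE 0.19). Of 7 B cell genes 3 fell (491 to 594 in the lymphomas and 1069 to 1440 in WT), with Cd79b at 6.50, 7.13 and 6.31 in the lymphomas, against 8.69, 8.82 and 9.22 in WT (adjusted p = 0.00145). With 1 sample left out 5 to 8 neutrophil genes fell, fewest without WT 2.

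Of 14 macrophage and dendritic genes 1 rose and 2 fell (summed level 3657 to 5727 in the lymphomas and 3444 to 4234 in WT), and of 9 fibroblast and endothelial genes 0 passed in limma in either direction, with 1 at an unadjusted p under 0.05 (summed level 2038 to 3899 in the lymphomas and 2366 to 2600 in WT). Among these, Pdgfrb lay at 7.31, 10.75 and 7.34 in the lymphomas, against 7.37, 7.04 and 7.11 in WT, so that the line 47 lymphoma stood apart. Of the natural killer and cytotoxic genes 1 of 3 tested fell, of the erythroid genes the 1 tested fell, and of the adipocyte genes 0 of 2 passed in limma (0 at an unadjusted p under 0.05). Array features shared by several globin genes were lower too. That of Hba-a2 and Hba-a1, alpha globins, had a difference of -1.56 (adjusted p = 0.00339). Features of Hbb-b1, Hbb-b2 and Hbb-bs, beta globins, had differences of -3.19, -1.72 and -1.55 (adjusted p = 0.00111, 0.00393 and 0.00198). B cell, epithelial and neutrophil levels moved with the falls of class II and of interferon-inducible genes, and their part in those falls was not tested.

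The lymphomas varied more among themselves than the WT samples. The median SD of a gene was 0.181 among the lymphomas and 0.0856 among the WT samples, and 168 genes had a range above 2 on the log2 scale among the lymphomas, against 0 among the WT samples. The 12 genes with the widest range among those with a WT range under 0.5 were led by Slc7a11, the cystine importer, at 5.10, 11.30 and 4.93 in the lymphomas, against 9.96, 10.33 and 10.17 in WT. The line 47 lymphoma thus lay above WT, and the other two far below it. Without the line 47 lymphoma Slc7a11 was called lower (difference -5.14, adjusted p = 1.92e-05). Kdm5d and Uty, also among the 12, are Y-linked and were high in the line 47 lymphoma and in WT.

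Each lymphoma contributed genes of its own. Fbp1, a gluconeogenic phosphatase, lay at 6.05, 8.07 and 10.88 in the lymphomas, against 6.29, 6.50 and 6.46 in WT, highest in line 86. Grik1, a kainate receptor subunit, lay at 9.12, 9.93 and 5.31 in the lymphomas, against 5.34, 5.04 and 4.96 in WT, so that the line 86 lymphoma lay within the WT range. Il2ra, the high-affinity IL-2 receptor chain, lay at 10.92, 6.91 and 9.34 in the lymphomas, against 10.92, 10.80 and 10.94 in WT, and the adhesion receptor Cd2 at 8.05, 5.42 and 9.35 in the lymphomas, against 9.51, 9.45 and 9.73 in WT. The line 47 lymphoma was the lowest for both T cell proteins. Pde7a, a cyclic AMP phosphodiesterase, lay at 7.75, 6.39 and 10.30 in the lymphomas, against 8.81, 8.75 and 8.82 in WT, and Laptm4b, a lysosomal membrane protein, at 9.12, 10.95 and 7.12 in the lymphomas, against 8.87, 8.96 and 8.95 in WT. Of the 12 genes the line 47 lymphoma was the highest for 7 and the lowest for 4.

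**Figure D3:**
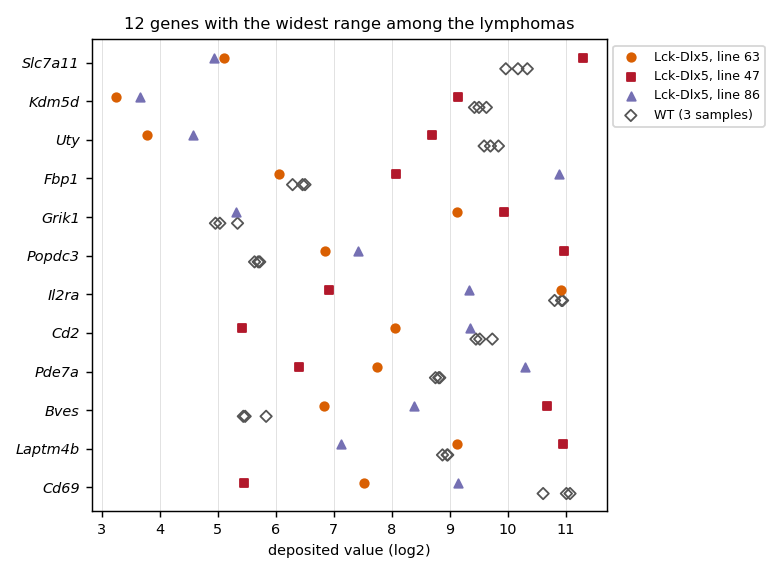
Deposited log2 value (horizontal axis) of each sample for the 12 genes with the widest range among the 3 lymphomas and a WT range under 0.5, ordered by the range. Filled symbols are the lymphomas by founder line and open diamonds the 3 WT samples, which lie close together in every gene while the line 47 lymphoma is the highest in 7 of the 12 and the lowest in 4.

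Gene levels were also averaged by chromosome in each lymphoma, as the median difference from the WT mean after the autosomal median was subtracted. Chromosome 15, with 538 tested genes, stood at 0.030 in the line 63 lymphoma, 0.22 in the line 47 lymphoma and 0.099 in the line 86 lymphoma. The other 18 autosomes lay between -0.070 and 0.067 in the 3 lymphomas, and the 19 autosomes of each WT array, set against the other WT arrays, between -0.014 and 0.021. With only genes above the 75th percentile, chromosome 15 stood at 0.074 in the line 63 lymphoma, 0.381 in the line 47 lymphoma and 0.189 in the line 86 lymphoma. The X chromosome stood at 0.036, -0.037 and -0.12 in the lymphomas. No test was made, and DNA copy number was not analysed here.

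**Figure D4:**
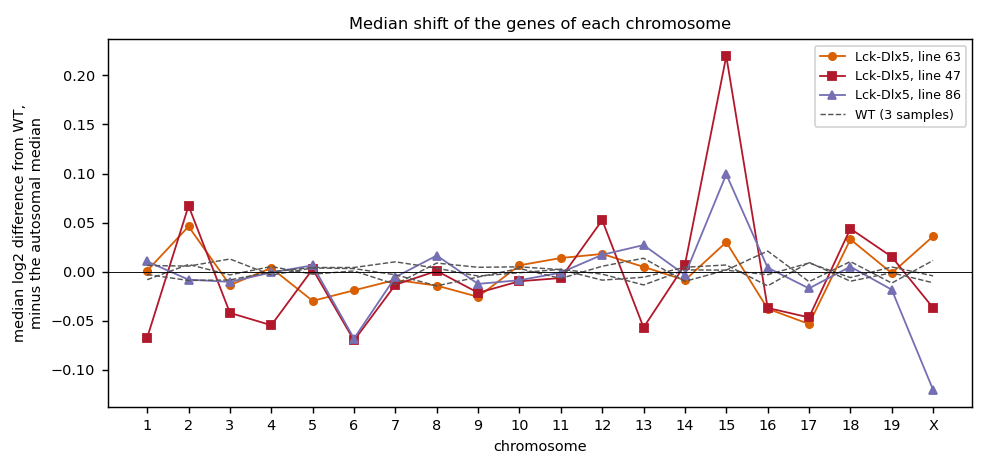
Median log2 difference of the tested genes of each chromosome from the WT mean, minus the autosomal median (vertical axis), by chromosome (horizontal axis). Solid lines with symbols are the 3 lymphomas and dashed lines the 3 WT samples, each set against the other WT samples; chromosome 15 reaches 0.22 in the line 47 lymphoma and 0.099 in the line 86 lymphoma.

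The 30 genes furthest from WT were set against the other tumors in the same fit, all contrasts sharing the 3 Lck-Dlx5 arrays. Relative to founder line 72 of Lck-MyrAkt2 tumors, where 19.7% of all tested genes were called, 9 of the 15 highest genes were higher in the Lck-Dlx5 lymphomas and 5 of the 15 lowest were lower. Glp1r averaged 10.25 in Lck-Dlx5 lymphomas and 5.66 in line 72 tumors (difference 4.59, adjusted p = 6.01e-07), Bex1 9.93 in Lck-Dlx5 lymphomas and 5.83 in line 72 tumors (4.10, adjusted p = 4.58e-06), and Dppa2 8.67 in Lck-Dlx5 lymphomas and 5.62 in line 72 tumors (3.05, adjusted p = 0.000599). Itga4 averaged 6.52 in Lck-Dlx5 lymphomas and 9.58 in line 72 tumors (-3.06, adjusted p = 0.00362). The other 6 of the 15 highest did not pass against line 72, from Cxcl13 (-1.42) and Mt2 (-0.42) to Popdc3 (2.35, adjusted p = 0.0602).

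Relative to line 420 tumors, where 0.827% of all tested genes were called, 2 of the 15 highest were higher and 1 was lower in the Lck-Dlx5 lymphomas, and 0 of the 15 lowest passed. Sh3gl3 averaged 9.90 in Lck-Dlx5 lymphomas and 6.46 in line 420 tumors (3.44, adjusted p = 0.0077). Relative to the double transgenic tumors (1.86% called), Glp1r was lower, at 10.25 in Lck-Dlx5 lymphomas and 11.69 in double transgenic tumors (-1.44, adjusted p = 0.0299). Ccnd2 was lower as well, at 5.75 in Lck-Dlx5 lymphomas and 9.51 in double transgenic tumors (-3.76, adjusted p = 0.0347), and no other gene of the 30 passed in limma. Il7r, from the receptor list, was lower in the Lck-Dlx5 lymphomas than in line 72 tumors (-2.08, adjusted p = 0.0104) and line 420 tumors (-3.27, adjusted p = 0.00842). A gene that did not pass in these contrasts is not shown to be equal.

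**Figure D5:**
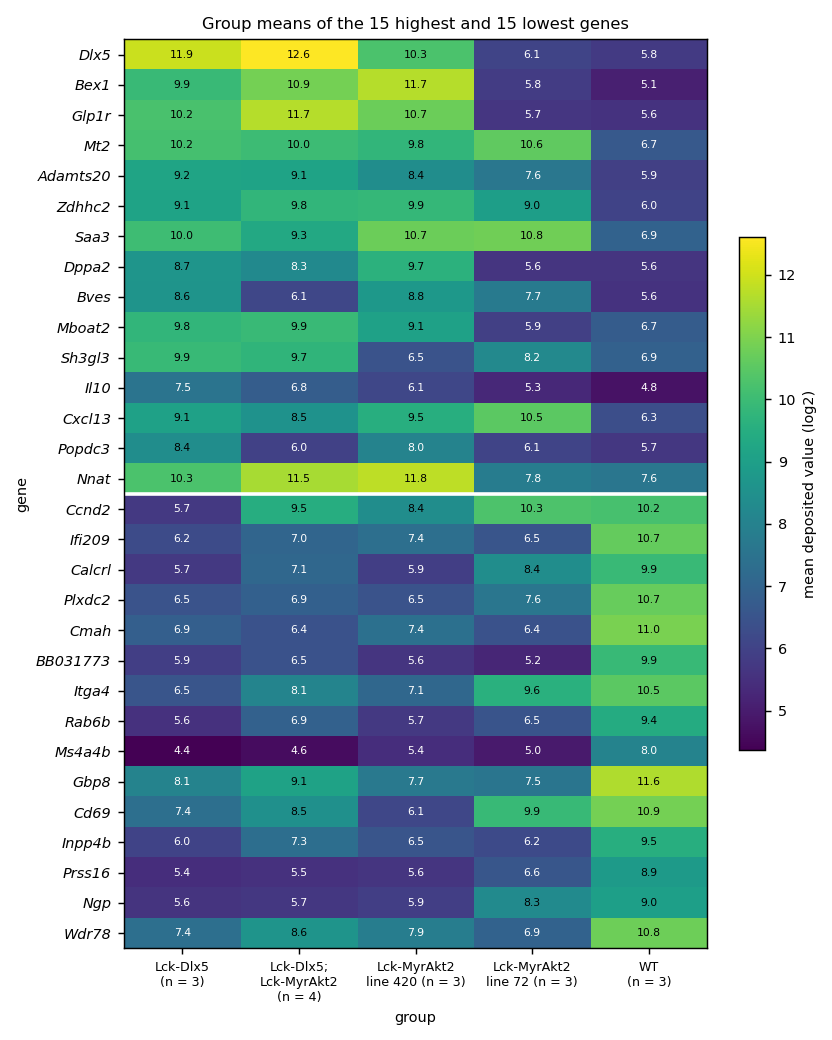
Mean deposited log2 value of each group (columns, n below each name) for the 15 highest genes (upper rows) and the 15 lowest genes (lower rows) of Lck-Dlx5 lymphomas against WT; brighter cells are higher. Bex1, Glp1r and Dppa2 average 5.83, 5.66 and 5.62 in line 72 tumors, against 5.08, 5.58 and 5.62 in WT, and Mt2 averages 9.80 to 10.58 in all tumor groups, against 6.66 in WT.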

How the data were processed

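Total RNA of 16 samples had been hybridized to Affymetrix whole-transcript mouse gene arrays, 1 array per sample, and the authors deposited log2 expression values summarized with Affymetrix Expression Console (a tool named in the submitters' processing notes, with no version). Summarization and normalization settings and the genome build were not given in the sources used here. The array number limits the precision, since no read depth exists. Of 41345 features, 23521 named 1 gene, 1820 several and 16004 none. The brightest feature with 1 gene stood for that gene. Genes without such a feature were not analysed here, apart from the shared features of globins, of Dlx1as and Metap1d and those named in the closing sections.

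Tests were run on genes brighter than the array median on at least 3 of 16 arrays. limma 3.58.1 (R 4.3.3) fitted 1 mean for each of the 5 groups on the deposited log2 values with empirical Bayes, adjusted p-values by Benjamini-Hochberg over all 12932 tested genes and called them under 0.05. The procedure was tested on simulated data first. The samples were grouped by the genotype in the labels. The members and the 43 gene lists (35 pathways and 8 marker lists, 969 entries, 882 with a feature of their own) were chosen with earlier results of these data known. Named were the 15 highest and 15 lowest called genes without overlap (predicted genes, small RNAs, olfactory and vomeronasal receptors and receptor segments left out), up to 4 called members of a list with the largest change, or the 2 largest if none was called, and the 12 genes of widest range among the lymphomas. Genes named outside this rule, such as Zap70, Lat, Cd8a, Ccr9, Psmb8, Dlx6 and Pdgfrb, were chosen after their values were seen. Promoter sequences and positions came from RefSeq (GRCm38.p6). Figures were drawn with matplotlib 3.10.9 (Python 3.11.15). The alternatives were quantile scaling, a shift to equal medians, no filter and a stricter filter, the mean of a gene's features, the 6 arrays alone, a trended robust prior, array weights, each sample left out and stricter thresholds. A shift over the tested genes only and the line 47 lymphoma alone were chosen after seeing the data.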

Additional observations from a re-analysis of the deposited data

Results flagged for a closer look

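Array features that named several genes or none took no part in the comparison. Tested in the same way with limma, 84 of 1352 features with several genes were at least 2-fold higher in the lymphomas and 55 at least 2-fold lower. Of 8653 features with no gene, 134 were at least 2-fold higher and 320 at least 2-fold lower. Among the 12932 tested genes, 282 (2.18%) were at least 2-fold higher and 626 (4.84%) at least 2-fold lower. Only the share of higher features with several genes exceeded the matching share of tested genes. The largest rises among features with several genes were those of histone genes. Their differences were 3.16 and 2.72 for H3 features, 2.81 for an H2B feature and 2.50 for an H4 feature. The largest fall was that of the feature of Mir568 and Zbtb20 (-3.21). The signals of both kinds of feature were flagged because, apart from the globin features and that of Dlx1as and Metap1d given above, no result described before uses them. Which of its genes a shared feature read, and what the features with no gene read, was not tested.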

How the results depend on the processing

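Of 211 named genes 5 changed sign under at least 1 alternative (Slc7a11, Pde7a, Laptm4b, Zap70 and Plin1), 0 of them called in the fit described. The count of 3828 called genes (1772 higher, 2056 lower) became 1798 (824 and 974) at an adjusted p under 0.01. At an adjusted p under 0.05 and a difference of at least 1 on the log2 scale it was 908 (282 and 626, 31.1% of them higher). The count rose to 5289 (2498 and 2791) with array weights, 4660 (2121 and 2539) with the 6 arrays alone and 4194 (2234 and 1960) without the filter. With the line 47 lymphoma alone it was 1907 (973 and 934), where the single lymphoma is assumed to vary like the other groups. With 1 sample left out it ran from 2372 to 3254 (1076 to 1679 higher, 1294 to 1665 lower, 43.4% to 51.6% higher), fewest without WT 2. The share of higher calls, 46.3%, was 59.5% after each array was shifted to the same median over the tested genes, 52.8% with quantile scaling, 53.3% without the filter and 50.1% with the filter at the 75th percentile, so that which direction held more calls depended on the setting. With that stricter filter chromosome 15 stood at 0.074, 0.381 and 0.189 in the lymphomas of lines 63, 47 and 86, against 0.030, 0.22 and 0.099 in the fit described. The cause of these shifts was not tested. Of the named genes, 19 to 38 lost their call with 1 sample left out, 3 with quantile scaling, 9 without the filter on dim genes and 5 with the 6 arrays alone, where 10 gained one. No paired analysis was possible because lymphomas and WT samples came from different mice, and the labels match no lymphoma to a WT sample. Of the 15 highest genes 9 lay below the array median in all WT samples, and of the 15 lowest 8 in all lymphomas, which limits how well the sizes of those differences are known.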
